A study of Caenorhabditis elegans with 4 samples.

Results

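LSY-2 binding in the centre of chromosome V comprised 573 distinct regions, out of 6048 in the combined list of the whole genome. A region belonged to it when its midpoint lay on V between 5900000 and 16550000 in the WormBase WS220 build, a stretch of 10.65 Mb that makes up 50.9% of the chromosome. Given this stretch, position alone chose the regions, and no measured value was used. The stretch itself was chosen with earlier results of these data known. One interval of the stretch was listed under 2 ranks and was counted once. Some of the 573 regions overlap each other in part and were kept apart, and joining those that overlap leaves 562. The regions were compared with the 286 on the rest of V and the 4247 on the other autosomes, I to IV. Of those on the other autosomes, 2628 lay in the same fraction of each chromosome, from 28.2% to 79.1% of its length.

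The material was fed L1 larvae (the first larval stage) of Caenorhabditis elegans, all hermaphrodites of strain OP367 grown at 20 °C and crosslinked in 2% formaldehyde. They carried unc-119(ed3) and the bombarded transgene wgIs367, in which lsy-2 is joined to a TY1 EGFP FLAG tag and unc-119 is the second gene of the construct. The labels name no mutation of the worm's own lsy-2 gene, so the signal is that of a tagged protein from 1 transgenic strain, averaged over whole larvae. Chromatin immunoprecipitation with antibodies against the tag was followed by sequencing (ChIP-seq) in 2 replicates, and 2 inputs of the same strain and stage are not analysed here. Nothing in the labels tells whether the replicates came from separate cultures, so their spread may be technical.

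LSY-2 belongs to the zinc-finger transcription factors. It is best known from the ASE taste neurons, a pair whose left and right members differ, where it is needed for the microRNA lsy-6 to be made on the left side. The autosomes of C. elegans have a characteristic layout, in which a central domain of low recombination is flanked by arms of high recombination. The centres hold many of the conserved and essential genes, while the arms are richer in repeats and in chromatin methylated at lysine 9 of histone H3. Chromosome V is known for its many chemoreceptor genes, many of them on its arms.

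Each replicate list held 30000 entries and the combined list 6064. Every entry carries a rank in its name, with 1 the best, and the authors' score, whose scale is not named and whose highest value was shared by 414 of the 573 regions (72.3%). Strength is therefore given as rank. Without read counts in the lists, the sequencing depth is unknown. For densities per replicate the entries ranked 1 to 6064 were used, to match the size of the combined list. Only the ChIP samples have lists and they form 1 group, so the design allows no test between groups. Intervals are 95% intervals over regions that cover counting error only, and neighbouring regions are not independent.

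The centre of V carried LSY-2 regions more densely than the arms of the same chromosome, and less densely than the corresponding parts of I, II and III. The combined list held 53.8 regions per Mb there (exact Poisson interval 49.5 to 58.4), against 27.8 (24.7 to 31.3) on the rest of V. In the replicates the centre held 53.8 and 53.4 per Mb, and the rest of V 27.9 and 28.3. The ratio of the centre to the rest of V was 1.91 ± 0.0281 (SD, n = 2) in the replicates and 1.93 in the combined list. Thus 66.7% of the 859 regions of V lay in the centre, which spans 50.9% of it. The left arm held 30.2 regions per Mb (25.9 to 34.9) and the right arm 24.7 (20.3 to 29.8), and these intervals overlap each other but not that of the centre.

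In the combined list the centre of V, with 53.8 regions per Mb, stood at 0.780 of the density of the other autosomes, which held 68.9 per Mb as a whole (66.9 to 71.1). The replicates held 53.8 and 53.4 per Mb in the centre of V and 68.8 and 69.4 on the other autosomes, a ratio of 0.776 ± 0.00836 (SD, n = 2). Against the same fraction of the other autosomes, which held 83.8 per Mb (80.6 to 87.1), the ratio was 0.642 in the combined list and 0.635 ± 0.00943 (SD, n = 2) in the replicates. Set beside the outer parts of the other autosomes, which held 53.5 per Mb (50.95 to 56.2) when pooled, the ratio was 1.01 in the combined list. This held for the pooled mean and not for each chromosome: the outer parts of II held 43.5 per Mb (38.9 to 48.5) and those of III 67.7 (61.6 to 74.2), one on either side of the centre of V and with intervals that do not overlap its own. With all entries of the replicates the ratio to the pooled outer parts was 0.799 and 0.775 in replicates 1 and 2. Coverage followed the counts: the summed length of the regions came to 1.61% of the centre of V, 0.831% of the rest of V and 2.09% of the other autosomes.

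Taken one chromosome at a time, the centre of V was the least dense of the 5 inner stretches in each list. With its 53.8 regions per Mb it came below the inner fraction of IV at 60.4 (55.4 to 65.8), of II at 84.2 (77.9 to 90.95), of I at 90.7 (84.1 to 97.7) and of III at 105.5 (98.0 to 113.4). The intervals of V and IV overlap, and those of V and the other 3 do not. In the replicates the centre of V stood at 0.858 and 0.871 of the inner fraction of IV, so both gave the lower density to V. The borders on I to IV are those of V carried over as a fraction of length. Whether they match the central domains of those chromosomes was not tested. The contrast of inner with outer parts had another order. On V it was 1.93-fold in the combined list (1.93 and 1.89 in replicates 1 and 2), beside 1.94-fold on II (1.88 and 1.97), 1.58-fold on I, 1.56-fold on III and 1.27-fold on IV. V and II changed places between the replicates, and both stood above the other 3 autosomes in each list. With all entries of replicates 1 and 2 the contrast on V was smaller, at 1.36-fold and 1.26-fold. There II stood above V in both, at 1.48-fold and 1.50-fold, and I was next below V at 1.19-fold and 1.17-fold.

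**Figure D1:**
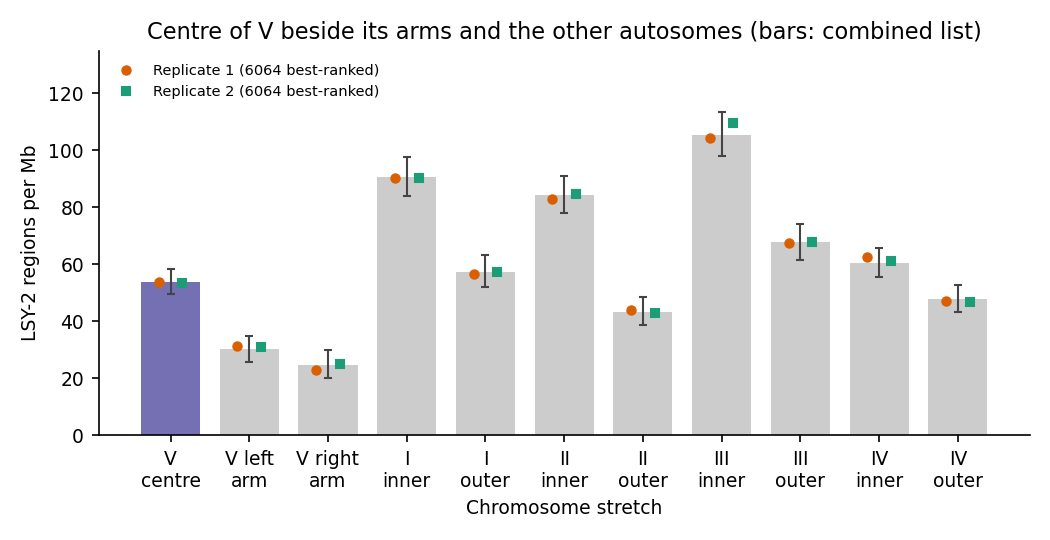
LSY-2 regions per Mb (vertical axis) in the centre of V, its arms, and the inner and outer parts of I to IV, where inner is the same fraction of the chromosome as the centre of V. Bars and error bars are the combined list with exact 95% Poisson intervals, and points are the 6064 best-ranked entries of each replicate; the centre of V at 53.8 per Mb lies above both arms of V and below the inner parts of I, II and III.

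Within the stretch the density was highest between the fifth and the eighth Mb from its left border. Counted in steps of 1 Mb from that border, the densest step ran from 10900000 to 11900000 and held 84 regions, with 88 and 78 entries in replicates 1 and 2. The step before it held 75, with 82 and 72 in the replicates. These were the only 2 of the 11 steps above the mean of the other autosomes. The sparsest step was the last one, from 15900000 to 16550000, with 10 regions or 15.4 per Mb (7.38 to 28.3), and 11 and 12 entries in the replicates. It was the only step below the mean of the rest of V, and its interval includes the 24.7 per Mb of the right arm. A second low lay near the left end, where the step from 6900000 to 7900000 held 33 regions (28 and 31 entries) beside 62 (57 and 62) in the step to its left; this step was picked after its count was seen. The density differed 5.46-fold between the densest and the sparsest step, while the replicates differed by at most 10 entries in any step. Over the 11 steps Spearman's rho between replicates was 0.95, a description of steps that share the same libraries.

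**Figure D2:**
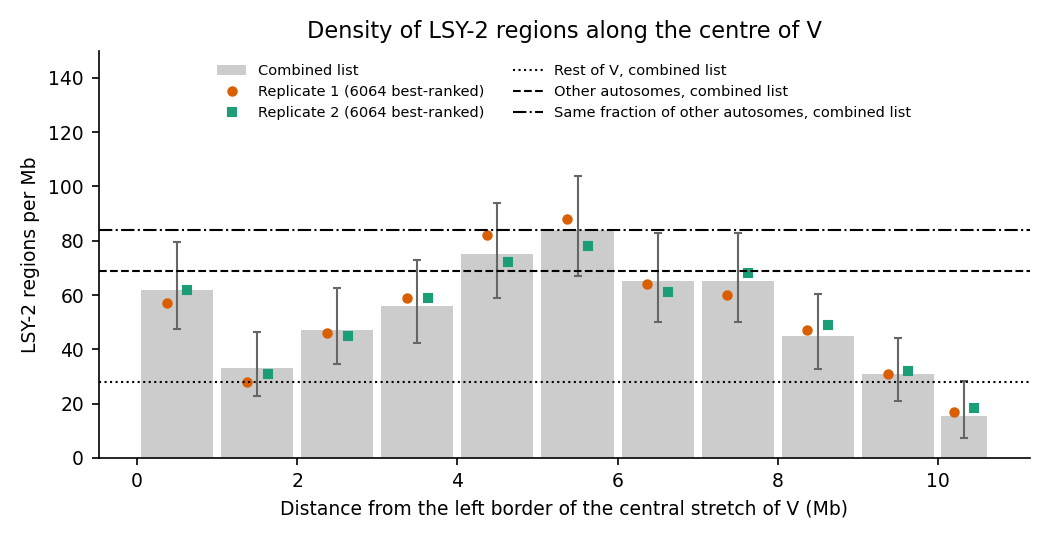
LSY-2 regions per Mb (vertical axis) in steps of 1 Mb against the distance in Mb from the left border of the central stretch of V; the last step is 0.65 Mb. Bars with exact 95% Poisson intervals are the combined list, points the 6064 best-ranked entries of each replicate and horizontal lines the means of 3 comparison stretches; density was highest in the sixth step at 84 per Mb and lowest in the last at 15.4.

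More regions lay inside than outside each border over 1 Mb, but over 0.5 Mb the combined list gave this at the left border only. At the left border the first 1 Mb inside held 62 regions and the last 1 Mb outside 37, with 57 and 39 entries in replicate 1 and 62 and 37 in replicate 2. Over 0.5 Mb at that border the counts were 35 inside and 24 outside, with 38 and 27 entries in replicate 1 and 35 and 26 in replicate 2. At the right border the last 1 Mb inside held 21 regions and the first 1 Mb outside 9, with 24 and 9 entries in replicate 1 and 23 and 6 in replicate 2. Over 0.5 Mb at the right border, however, the counts were 9 inside and 9 outside, with 8 and 9 entries in replicate 1 and 7 and 6 in replicate 2. The members nearest to the left border were at 5917770 to 5917992 (rank 477), 5939601 to 5939781 (rank 1069) and 5963704 to 5964053 (rank 4563). The nearest regions outside it were at 5851700 to 5852049 (rank 4568), 5848040 to 5848389 (rank 6055) and 5846037 to 5846150 (rank 1662). Next to the right border lay the members at 16538030 to 16538359 (rank 214), 16499084 to 16499251 (rank 1561) and 16401599 to 16401831 (rank 515). Outside it the nearest regions were at 16592152 to 16592501 (rank 3399), 16594478 to 16594827 (rank 3382) and 16595176 to 16595525 (rank 5798).

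Central V regions held about the same share of strong regions as the rest of V. Among them 138 of 573 (24.1%, Wilson interval 20.8 to 27.8) were within the 1516 best-ranked entries of the combined list, against 25% of all regions. The share was 23.4% (18.9 to 28.7) on the rest of V and 27.4% (26.1 to 28.8) on the other autosomes, and the interval of the centre of V overlaps both. In replicates 1 and 2 the centre of V had 23.4% and 24.1% of its entries among the 1516 best-ranked. The median rank was 3122 in the centre of V, 3060.5 on the rest of V and 2913 on the other autosomes. At the very top, 37 members (6.46%, 4.72 to 8.77) were among the 500 best-ranked entries, beside 22 regions of the rest of V (7.69%, 5.13 to 11.4) and 9.47% (8.62 to 10.4) of those on the other autosomes. The interval of the centre of V overlaps that of the rest of V, and that of the other autosomes only from 8.62 to 8.77. Overlap of intervals does not show that the shares are equal. Per Mb, regions of this class numbered 3.47 in the centre of V, 2.14 on the rest of V and 6.53 on the other autosomes. Along the stretch the number of members among the 1516 best-ranked was between 9 and 18 in every full step of 1 Mb. The step from 14900000 to 15900000 held only 31 regions, of which 13 (41.9%) were in that class, the highest share of any step, which was noticed after the values were seen.

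The excess over the arms was seen among strong and intermediate entries of the replicate lists, and the lower density than on the other autosomes was seen in all 6 groups of ranks. Among ranks 1 to 1000, replicate 1 had 84 entries in the centre of V and 41 on the rest of V, and replicate 2 had 88 and 49. This gave ratios in entries per Mb of 1.98 and 1.73. For ranks 1001 to 3000 the ratios were 2.00 in replicate 1 and 1.82 in replicate 2, and for ranks 3001 to 6000 they were 1.86 and 2.01. They were 1.66 and 1.52 for ranks 6001 to 12000, and 1.16 and 1.13 for ranks 12001 to 20000. For ranks 20001 to 30000 replicate 1 had 825 entries in the centre of V and 692 on the rest of V, a ratio of 1.15, and replicate 2 had 784 and 753, a ratio of 1.004. Against the other autosomes the ratio stayed between 0.628 and 0.825 in replicate 1 and between 0.662 and 0.829 in replicate 2 over the same 6 groups of ranks. It was lowest for ranks 1 to 1000 and highest for ranks 3001 to 6000 in both. Whether weak entries are binding regions was not tested.

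**Figure D3:**
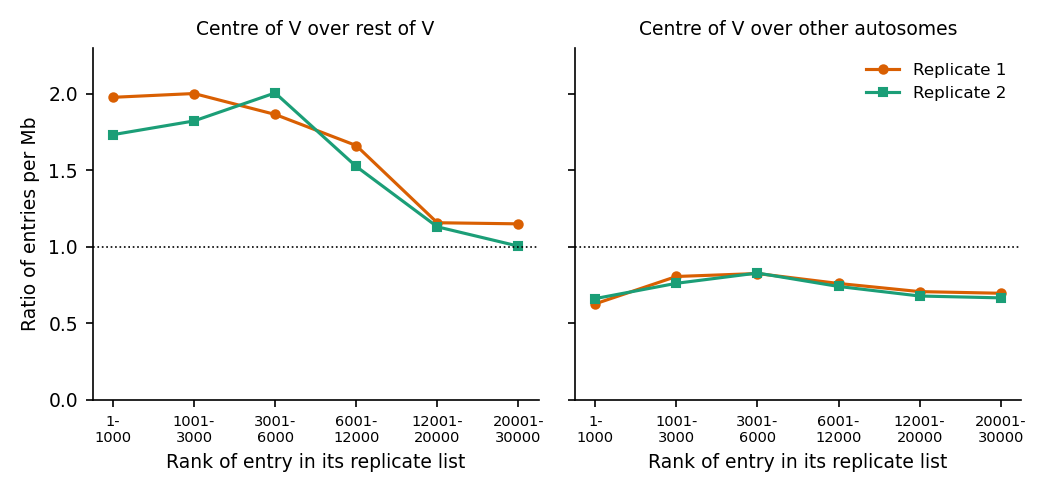
Ratio of entries per Mb in the centre of V to the rest of V (left) and to the other autosomes (right), vertical axis, against the rank of the entries in their replicate list, horizontal axis. Each point is 1 replicate; the left ratio is 1.73 or more up to rank 6000 and reaches 1.15 and 1.004 beyond rank 20000, while the right ratio is below 1 in every group of ranks.

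The best-ranked region of the whole list lay in this stretch, at 11764237 to 11764855, and held rank 1 in the combined list and in both replicates. It was called at 11764242 to 11764855 in replicate 1 and at 11764308 to 11764793 in replicate 2, and its nearest neighbour lay 1561.5 bp away, centre to centre. The next member followed only at rank 56, at 12318136 to 12318536, with ranks 56 and 61 in replicates 1 and 2. The third, at 15511571 to 15512019, had rank 67 (72 and 59 in the replicates) and no other region within 13837.5 bp. The fourth, at 14685551 to 14685936, had rank 100 (97 and 110), and the fifth, at 10897173 to 10897541, had rank 113 (94 and 136). The best region thus ranked ahead of the others of its stretch in both replicates. Its score tied with those of the other members named here, so the size of its lead in signal is unknown.

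The best 25 members reached down to rank 329. They were spread over 10 of the 11 steps of 1 Mb, with 6 of them between 11900000 and 12900000 and none between 6900000 and 7900000. Those at 14612177 to 14612515 (rank 118), 9789849 to 9790191 (rank 144) and 12343565 to 12343895 (rank 162) followed the first 5. Another, at 9730971 to 9731487, was the interval listed under 2 ranks, 139 and 2330. Both replicates had a pair of overlapping entries there, with ranks 138 and 2648 in replicate 1 and 144 and 3520 in replicate 2. The remainder ran from the member at 15002111 to 15002433 (rank 182) to the one at 12497771 to 12498052 (rank 329). Each of the 25 had a rank of 402 or better in replicate 1 and 400 or better in replicate 2.

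Most members shared 1 width, which almost none of the strong ones had. Of the 573 regions 366 (63.9%) were exactly 350 bp wide, but only 1 of the 138 members among the 1516 best-ranked was. Those 138 had a median width of 230 bp, against 234 bp for the same class on the rest of V and 245 bp on the other autosomes. The best 25 members were wider than that class as a whole, with a median of 318 bp and a range of 244 to 619 bp. The other 435 members had a median of 350 bp, as in both comparison stretches. Only 10 members were wider than 350 bp, and 9 of them had rank 520 or better. The widest were at 6224309 to 6224940 (632 bp, rank 520), 11764237 to 11764855 (619 bp, rank 1) and 9730971 to 9731487 (517 bp, rank 139). How the authors set the width is not recorded in the labels or file headers.

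The replicates agreed on where central V entries lay about as often as they did over the nuclear genome, or slightly more often. In the same fraction of the other autosomes they agreed more often. Of all 2605 entries of replicate 1 in the stretch, 1602 (61.5%, 59.6 to 63.3) overlapped an entry of replicate 2 by at least 1 bp, against 60.5% of all nuclear entries of replicate 1. Of the 2525 entries of replicate 2 in the stretch, 1541 (61.0%, 59.1 to 62.9) overlapped replicate 1, against 58.2% of all. This 58.2% lies below the interval of the centre of V in replicate 2. In the same fraction of the other autosomes the shares were 64.8% (64.0 to 65.7) and 62.5% (61.7 to 63.4) in replicates 1 and 2. Their intervals and those of the centre of V overlap in replicate 2 but not in replicate 1. On the rest of V the shares were 55.2% (52.9 to 57.5) and 50.8% (48.5 to 52.98) in replicates 1 and 2. The lists held 244.6 and 237.1 entries per Mb in the centre of V, against 180.0 and 187.6 on the rest of V. The part of this in the difference of the shares between these 2 stretches was not tested. For entries ranked 1 to 6064, the shares on the rest of V were 95.1% (92.0 to 97.1) and 96.9% (94.2 to 98.4). In the centre of V they were 96.2% (94.3 to 97.5) and 94.2% (92.0 to 95.8). At these ranks the rest of V was thus lower in replicate 1 and higher in replicate 2, with overlapping intervals in both. Among ranks 1 to 1000, 84 of 84 entries of replicate 1 and 88 of 88 of replicate 2 in the centre of V had a partner. Over all nuclear entries of these ranks 99.8% and 100% did, so the centre of V was near the share of the genome. Among ranks 20001 to 30000 38.7% and 38.9% in the centre of V had a partner, against 39.6% and 36.8% of all nuclear entries. On the rest of V 38.9% and 31.5% of the entries of these ranks did. Of the entries in the stretch 25.2% in replicate 1 and 24.7% in replicate 2 overlapped the combined list, against 23.3% and 22% of all nuclear entries.

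The irreproducible discovery rate, which the entries name as their source, compares replicates, so combined regions were partly selected for having partners. Members that overlap each other can have the same best partner, whose rank then counts for each of them. Of the 573 members 564 (98.4%, 97.0 to 99.2) overlapped entries of both replicates, against 98.9% of all combined regions. Their ranks in the replicates had a Spearman's rho of 0.79 over these 564 regions, beside 0.79 on the rest of V and 0.81 on the other autosomes, as descriptions across regions of the same libraries. The ranks of a member differed 1.34-fold between replicates at the median, and 1.09-fold among the best 25. The centres of its entries lay 24.25 bp apart at the median, and 7.5 bp apart among the best 100. The combined rank that picks the best members comes from the same replicates, so closer agreement among them is partly fixed by the choice and is given as a description. Beyond rank 6064 lay the best partner of 76 members in replicate 1 and of 92 in replicate 2.

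**Figure D4:**
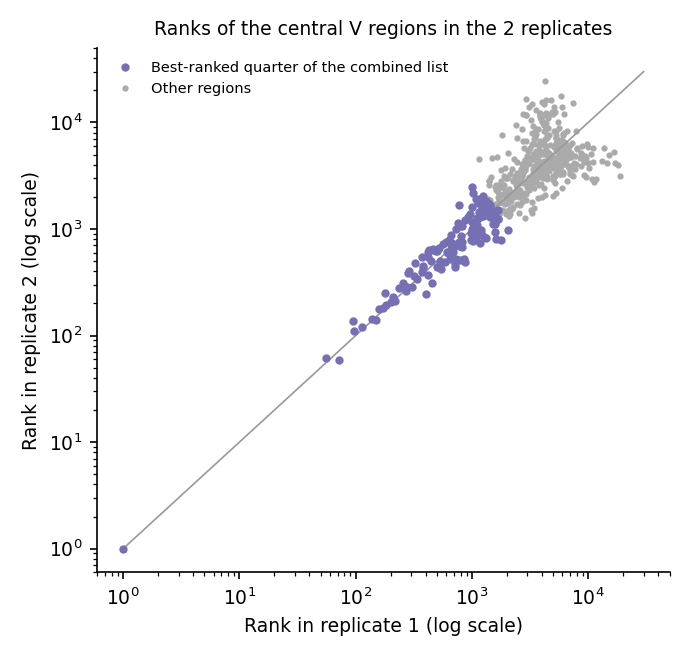
Rank in replicate 2 (vertical, log scale) against rank in replicate 1 (horizontal, log scale) for the 564 central V regions found in both; the line marks equal ranks. Members among the 1516 best-ranked combined entries lie along the line from rank 1 in both replicates, and the other members spread as far as rank 18768 in replicate 1 and 24650 in replicate 2.

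Some members differed more between the replicates. Over the 564 found in both, the upper quartile of the ratio of ranks was 1.69 and the highest value 5.94. Among the best 100 the largest difference was at 11782815 to 11782986, with ranks 1765 and 781 in replicates 1 and 2, a ratio of 2.26. It was followed by 13657428 to 13657620 (768 and 1667), 8000884 to 8001103 (1597 and 802), 10466596 to 10466900 (865 and 491) and 12869989 to 12870232 (402 and 246). In 3 of these 5, more than 1 entry of a replicate touched the region. Of the 9 members with a partner in only 1 replicate, 4 were missing from replicate 1 and 5 from replicate 2. The best-ranked were at 7465538 to 7465887, which had rank 1666 in replicate 2 and no partner in replicate 1, and at 14990857 to 14991206, which had rank 1899 in replicate 2 and none in replicate 1. All 9 were 350 bp wide. The best partners of the other 7 ranked from 3078 to 11216.

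Conversely, some regions called in both replicates were not in the combined list. In the stretch 950 entries of replicate 1 overlapped one of replicate 2 while neither touched a combined region, and most were weak, with median ranks of 15207 and 14096 in replicates 1 and 2. Only 11 had both ranks within 6064. The best were an entry at 12041109 to 12041478 with ranks 1478 and 1991 and one at 10320286 to 10320393 with ranks 1567 and 2100. These 2 ranked better in both replicates than the median member. They were followed by 10857239 to 10857608 (4407 and 4395), 15959444 to 15959813 (4837 and 3531) and 13566916 to 13567285 (4809 and 4976). The entry at 12041109 lay 2338 bp from the nearest member and the one at 10320286 lay 18395 bp away.

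Central V regions lay about as close to their neighbours as regions of the denser autosomes did. The nearest other region was 2688.5 bp away at the median, centre to centre, against 4822.5 bp on the rest of V, 2885 bp on the other autosomes and 2550.5 bp in the same fraction of those. A neighbour within 1 kb was found for 116 of 573 members (20.2%, 17.2 to 23.7), against 18.1% of all regions. Members that overlap each other count as neighbours here, and the share was 16.9% with overlapping intervals merged. The merged share was not computed for the other stretches. On the rest of V the share was 13.6% (10.1 to 18.1), and in the same fraction of the other autosomes it was 21% (19.5 to 22.6). The share in the centre of V was slightly below that of this fraction, and their intervals overlap. At 10 kb 80.6% (77.2 to 83.7) of its members had a neighbour, against 86.4% (85.0 to 87.6) in the same fraction of the other autosomes, and these intervals do not overlap.

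**Figure D5:**
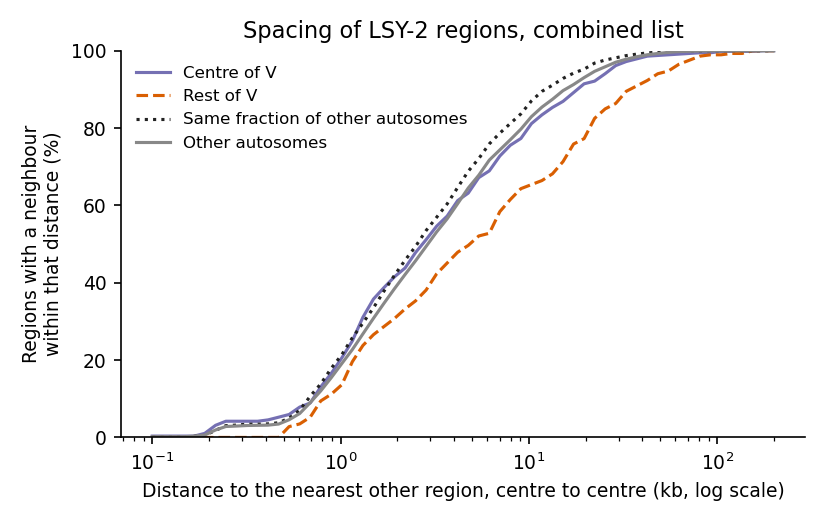
Share of combined regions in percent (vertical) whose nearest other region lies within the distance on the horizontal axis (kb, log scale). At 1 kb the centre of V, at 20.2%, is close to the same fraction of the other autosomes, at 21%; at 10 kb it is lower, at 80.6% against 86.4%, and the rest of V lies lower than both.

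The most crowded 20 kb held 10 members and could be placed in 3 overlapping ways between 6224309 and 6247667, near the left border. This 23.4 kb held 13 members in all, of which 3 were among the 1516 best-ranked, and their median rank was 3173. Replicate 1 had 26 entries there, 12 of them within the best 6064, and replicate 2 had 31 entries with 14. The widest member of the stretch, at 6224309 to 6224940, opened the cluster with rank 520, and the other strong members in it were at 6227455 to 6227966 (rank 479) and 6246594 to 6246839 (rank 659). The cluster's 3 of 13 is near the 24.1% of all 573 members in that class, and its median rank is near their 3122.

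At the other extreme, 14 gaps of over 100 kb between neighbouring members added up to 2.03 Mb of the 10.65 Mb. The longest ran for 309.3 kb from 16041677 to 16351005, the next for 203.6 kb from 15191339 to 15394891 and the third for 197.7 kb from 7237404 to 7435142. The first 2 lay in the sparse right end and the third in the low near the left end. The gaps are chosen for holding no combined region, which also lowers the count of replicate entries in them. Together the 14 gaps held 109 entries of replicate 1 and 119 of replicate 2, where the mean density of the stretch over all entries would give 497.3 and 482.0, and each gap lay below that mean in both replicates. The longest gap held 5 entries in replicate 1 and 6 in replicate 2, where that mean would give 75.7 and 73.3. Its best entries ranked 11518 and 6371. The second held 3 entries in replicate 1 and 1 in replicate 2, beside 49.8 and 48.3 at that mean, and the third 11 and 12, beside 48.4 and 46.9. The ease of placing reads in these gaps was not tested.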

How the data were processed

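ChIP-seq of tagged LSY-2 was analysed from 3 peak lists, 1 per ChIP replicate and 1 combined. Per the file headers, positions are in WormBase WS220; the source field of each entry names SPP and the irreproducible discovery rate. Which aligner, versions and thresholds were used, and how the input entered, is not given in the sources used here. A score per peak was deposited by the authors with no named scale. Many scores tie, so the rank in each peak's name gave the order. Exact duplicate intervals were counted once, and overlap meant at least 1 bp. Chromosome spans are the largest peak end in any list. Densities have exact Poisson intervals and shares 95% Wilson intervals. Python 3.11.15, pandas 2.3.3 and SciPy 1.17.1 were used, and the functions were tested on simulated lists. The stretch, the lists and the rule for named regions (the best 25, the widest, the most discordant, the longest gaps, the extreme steps, those at the borders, the densest 20 kb and shared entries outside the combined list) were chosen with earlier results of these data known. Gene annotation and sequence of the WS220 build were not used here, so regions are given by position.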

Additional observations from a re-analysis of the deposited data

How the results depend on the processing

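No paired analysis was possible because the 2 ChIP samples form 1 group and the inputs are not analysed here. Of 47 alternative values for 11 results, 24 stayed within the interval or replicate SD of the reported value and 23 moved. Rank agreement had no interval, so any other value of it counted as moved. A changed rank limit, neighbour distance or overlap rule also redefines the quantity. The tally is therefore a list of outcomes and no measure of robustness. The 4 values that leave out a replicate are not counted, since with 2 replicates they cannot lie outside the SD. The ratios of the centre of V stayed above 1 against the rest of V and below 1 against the other autosomes in every setting tried. Against the other autosomes the ratio (0.780) was 0.686 for the 1516 best-ranked combined entries. In the replicates the ratio to the rest of V (1.91) was 1.31 with all entries and 1.87 with the 1516 best-ranked, and 1.89 to 1.93 when either replicate was left out. That to the other autosomes (0.776) was 0.718, 0.681, and 0.770 to 0.782. The share of members with a partner in both replicates was 81.7% with reciprocal 50% overlap, 92.5% with centres within 100 bp and 99.3% for the 3032 best-ranked. For entries of replicate 1 the overlap was 44.8% and 37.8% under those rules and 74.0% between the 6064 best-ranked of both lists; for replicate 2 it was 45.2%, 38.9% and 73.6%. Rank agreement (rho 0.79) was 0.38 for scores, many of which tie, 0.68 over all matched entries and 0.72 with reciprocal 50% overlap. By construction, the share of strong members changed with the rank limit, to 48.7% for the 3032 best-ranked, 9.08% for the 606 best-ranked and 6.46% for the 500 best-ranked. The share with a close neighbour was 5.93% within 500 bp, 42.1% within 2 kb and 16.9% with overlapping intervals merged. The depth of the samples is unknown, and no background from the inputs is set beside any value.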
